A study of Mus musculus with 10 samples.

Results

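The genes of the mitochondrial ribosomal proteins were taken as all rows whose symbol starts with Mrpl or Mrps followed by a digit. They numbered 77 of the 11617 genes listed, and all 77 were tested. Their levels were read from poly-A RNA of macrophages grown from the bone marrow of C57BL/6 mice. Treatment was with AmTARS or with Pam3CSK4, ligands of Toll-like receptor 2 (TLR2), and control cells had neither. The 5 groups were untreated control, AmTARS for 1 h, AmTARS for 3 h, Pam3CSK4 for 1 h and Pam3CSK4 for 3 h, with 2 libraries each (n = 2 per group). The medium of all groups was DMEM with 10% FBS; GM-CSF, a cytokine that drives myeloid growth, was present at 50 ng/ml. The labels give the age of the mice as 6 weeks in one field and 7 weeks in another. Pam3CSK4, a synthetic triacylated lipopeptide, was given at 10 ng/ml. The AmTARS dose is written as 0.5 with the unit mm, so the doses of the ligands cannot be related. The labels do not spell the name AmTARS out; in the literature it stands for a threonyl-tRNA synthetase from Akkermansia muciniphila, a bacterium of the gut. The control carries no time label. Separate cultures or animals are not stated for the libraries of a group, so the p-values measure the spread between these libraries, which may be technical.

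Mitochondria have their own ribosome, which translates the few messenger RNAs encoded in mitochondrial DNA, all of them for subunits of the oxidative phosphorylation complexes. Its RNA comes from mitochondrial DNA, while its proteins are encoded in the nucleus, made in the cytosol and imported. Genes named Mrpl mostly encode proteins of the large subunit, where peptide bonds form, and genes named Mrps mostly proteins of the small subunit, where the message is decoded. Of the 77 genes, 50 encode large-subunit proteins and 26 small-subunit proteins. Mrps30 and Mrps18a are counted with the large subunit, where their proteins sit despite the name. Mrps36, the remaining gene, encodes a protein now known as a subunit of the alpha-ketoglutarate dehydrogenase complex. In macrophages, mitochondrial translation bears on respiration, which is known to change during activation through Toll-like receptors.

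The genes lie on 17 chromosomes. RefSeq promoter windows, from 250 bases before to 50 bases after the annotated start, were matched for 68 of the 77 genes (build GRCm38.p6). Promoters of mitochondrial protein genes are known for sites of NRF1, ETS-family factors and YY1. Shown here are stretches without annotated exons upstream of the 6 genes on which the results below turn. Capitals mark a match to a searched motif on either strand, and each stretch is written 5′ to 3′ on the strand of its gene.
Mrpl17 (chr7:105811100-105811249, minus strand): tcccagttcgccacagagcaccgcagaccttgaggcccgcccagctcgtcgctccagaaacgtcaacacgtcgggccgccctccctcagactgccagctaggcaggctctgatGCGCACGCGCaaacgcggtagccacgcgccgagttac
Mrpl57 (chr14:57826186-57826233, plus strand): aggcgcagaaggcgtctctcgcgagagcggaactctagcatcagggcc
Mrpl11 (chr19:4962056-4962146, plus strand): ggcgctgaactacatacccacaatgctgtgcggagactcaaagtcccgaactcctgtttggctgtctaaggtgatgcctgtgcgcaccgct
Mrps14 (chr1:160195065-160195214, plus strand): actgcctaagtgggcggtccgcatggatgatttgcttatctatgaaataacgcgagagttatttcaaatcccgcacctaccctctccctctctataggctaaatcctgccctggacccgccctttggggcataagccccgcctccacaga
Mrpl52 (chr14:54426759-54426908, plus strand): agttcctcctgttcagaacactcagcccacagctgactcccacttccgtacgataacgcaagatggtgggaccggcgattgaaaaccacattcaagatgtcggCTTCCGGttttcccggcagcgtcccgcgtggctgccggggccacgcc
Mrps6 (chr16:92058120-92058269, plus strand): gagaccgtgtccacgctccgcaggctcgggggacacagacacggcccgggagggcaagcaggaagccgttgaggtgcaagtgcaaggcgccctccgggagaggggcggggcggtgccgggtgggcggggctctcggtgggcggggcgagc
The capitals upstream of Mrpl17 are the NRF1 core and those upstream of Mrpl52 the ETS core, read on the other strand. The full windows of these genes held more matches than the stretches shown. In them Mrpl17 and Mrpl57 had the NRF1 core and the ETS core, Mrpl11 the CCAAT box and Mrpl52 the ETS core at 2 places. The windows of Mrps14 and Mrps6 held no searched motif. The stretch of Mrpl57 is short because the neighbouring gene Ska3 starts 49 nt away on the other strand. Such head-to-head starts of protein-coding genes within 1000 nt were found for 19 of the 77 genes (24.7%) and for 11.4% of all listed protein-coding genes. Among the partners were Sars2, the mitochondrial seryl-tRNA synthetase gene, 172 nt from Mrps12, and Ndufs6, a complex I gene, beside Mrpl36.

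In the windows of 300 bases, searched on both strands, the NRF1 core (the consensus with 1 free base, matched by the capitals of Mrpl17) was present for 13 of the 68 genes (19.1%). It was present for 5.2% of all 27025 genes with a window and for 11.9% of the 8957 such genes listed in the table. The ETS core CCGGAAG was present for 25 of the 68 (36.8%), against 9.9% of all genes and 20.9% of the listed ones. The YY1 core AAGATGGC was present for 12 (17.6%), against 3.2% and 5.6%. For these 3 motifs the share among the mitochondrial ribosomal protein genes was thus above both backgrounds. The E-box CACGTG was present for 5 (7.4%, against 8.1% and 12%), the CCAAT box for 27 (39.7%, against 41.1% and 42.8%) and the TATA letters TATAAA for 5 (7.4%, against 15.7% and 8.4%). The NF-kB decamer was in none of the 68 windows and in 0.2% of either background. Matches of different motifs may overlap, and a match describes letters, not a bound site.

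All 77 genes were expressed at low to moderate levels, with a mean over the 10 libraries of 6.55 to 50.5 CPM (reads scaled to the size of the library). Per kilobase of annotated transcript, the highest control levels were those of Mrps21 (81.3 CPM per kb), Mrpl52 (67.5) and Mrpl20 (49.6). The lowest were those of Mrpl47 (1.74), Mrps35 (2.57) and Mrps25 (3.01). These extremes follow the annotation as much as the counts, since Mrps21 has a transcript of 405 nt and Mrps25 one of 6073 nt. In single libraries the lowest count of any of these genes was 182 reads. Together the 77 genes took 0.177% and 0.18% of the reads of the control libraries and 0.193% to 0.215% of those of the 8 treated libraries, so that their share of the reads was higher in each treated library than in either control library.

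Relative to untreated cells, most mitochondrial ribosomal protein genes were higher with either ligand at either time, by small amounts. With AmTARS at 1 h, 46 of the 77 genes rose and none fell, by the test with limma (Benjamini-Hochberg adjusted p below 0.05), against 18.9% of all 11407 genes tested that were called higher and 19.8% called lower. With AmTARS at 3 h, 42 rose and none fell (18.8% of all genes higher, 17.9% lower). With Pam3CSK4 at 1 h, 57 rose and none fell (23.9% and 24.8%). With Pam3CSK4 at 3 h, 44 rose and 1 fell, Mrps6 (24.7% and 24.2%). The median log2 fold change of the 77 genes was 0.20 with AmTARS at 1 h, 0.20 at 3 h, 0.28 with Pam3CSK4 at 1 h and 0.18 at 3 h, while that of all genes tested lay between -0.01 and 0.00. The 4 comparisons share the control libraries. In all 4 of them 32 genes were called higher, and 13 were called higher in none. For 51 of the 77 genes each of the 8 treated libraries lay above both control libraries, which held for 21.7% of all genes tested.

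**Figure D1:**
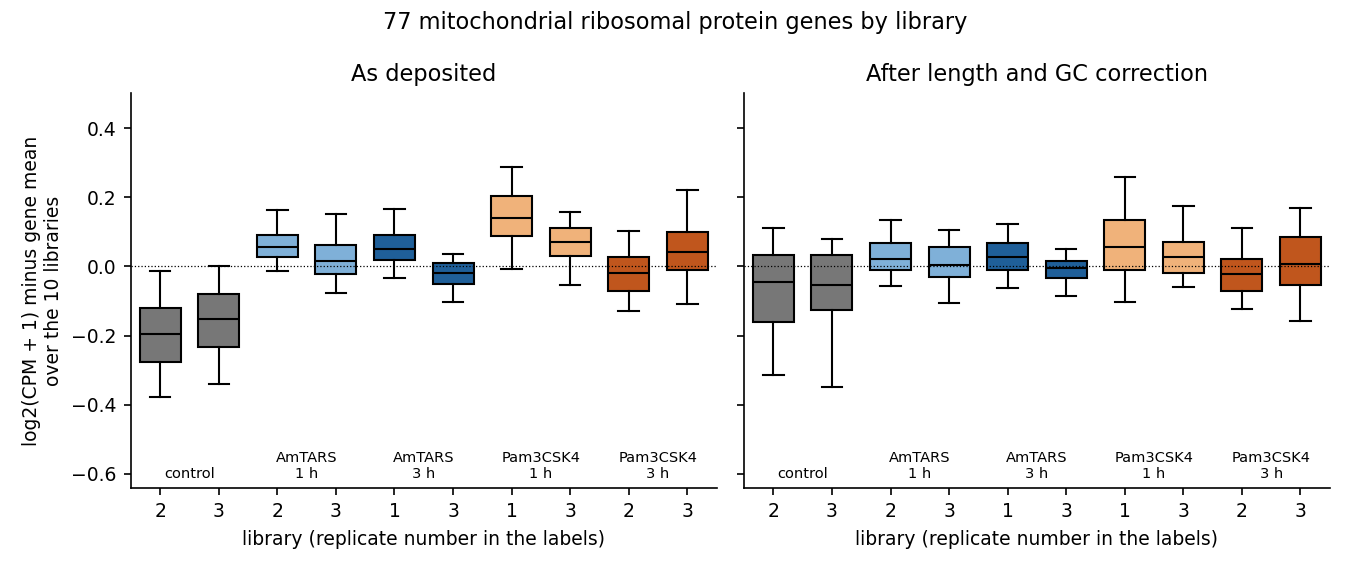
Deviation of the 77 genes from their own mean over the 10 libraries (log2 of CPM + 1), by library; boxes give the quartiles and the median, whiskers the 5th and 95th percentiles. As deposited (left), the medians of the control libraries are -0.19 and -0.15 and those of the treated libraries run from -0.02 to 0.14. After correction for transcript length and GC content (right) the boxes lie closer together.

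The shares of all genes called in fits without 1 library were not counted, so the counts of such fits cannot be read against all genes. Leaving out 1 library lowered the counts of genes called higher than control most for AmTARS. At 1 h, 28 genes rose without AmTARS replicate 2 and 30 without control replicate 2. At 3 h, 15 rose without AmTARS replicate 1 and 23 without control replicate 2. For Pam3CSK4 at 3 h, 28 rose without Pam3CSK4 replicate 3. The call of the 1 lower gene, Mrps6, with Pam3CSK4 at 3 h was lost without control replicate 2, control replicate 3 or Pam3CSK4 3 h replicate 2, with adjusted p up to 0.098 in limma.

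Large-subunit genes rose in number 30, 27, 39 and 30 of 50, in the order AmTARS 1 h, AmTARS 3 h, Pam3CSK4 1 h and Pam3CSK4 3 h, and none fell. After correction for transcript length and GC content, which is described further on, the numbers were 13, 10, 17 and 18, and 0, 0, 1 and 5 fell; all genes called higher made up 18.9%, 18.8%, 23.9% and 24.7% as deposited and 8.13%, 11.3%, 11.7% and 21.1% after correction. The stalk of the large subunit, which recruits translation factors, is encoded by 5 of these genes (Mrpl10, Mrpl11, Mrpl12, Mrpl53 and Mrpl54), of which 3, 4, 5 and 4 rose as deposited and 2, 2, 2 and 3 after correction. Mrpl12, the gene of the mobile stalk protein, had 39.2 and 38.6 CPM in the control libraries and 46.0 to 57.9 CPM in the treated ones. Its log2 fold changes were 0.41, 0.33, 0.51 and 0.34 (SE 0.06 each). All 8 treated libraries lay above both control libraries for Mrpl12. Of 8 genes around the exit of the peptide tunnel 4, 3, 4 and 6 rose as deposited and 2, 1, 3 and 4 after correction, with 1 lower in the last, and Mrpl17 stood at 0.39, 0.41, 0.47 and 0.41 as deposited. Of 8 genes of the central protuberance 6, 4, 7 and 5 rose as deposited and 1, 1, 1 and 3 after correction, with 1 lower with Pam3CSK4 at 1 h. Among them Mrpl52 had the highest log2 fold change of the 77 genes with Pam3CSK4 as deposited, 0.57 at 1 h and 0.58 at 3 h. Its control libraries had 27 and 29.5 CPM, its AmTARS libraries 39.8 and 36.6 CPM at 1 h and 39.9 and 36.6 CPM at 3 h, and its Pam3CSK4 libraries 45.2 and 39.6 CPM at 1 h and 41.4 and 43.9 CPM at 3 h. Control and treated libraries did not overlap for Mrpl52.

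Among large-subunit genes with a counterpart in the bacterial ribosome, 19, 19, 25 and 19 of 30 rose, and among those without one 11, 8, 14 and 11 of 20. After correction these counts were 8, 7, 11 and 11 of 30 and 5, 3, 6 and 7 of 20. Of all genes, 18.9%, 18.8%, 23.9% and 24.7% were called higher as deposited and 8.13%, 11.3%, 11.7% and 21.1% after correction. Other large-subunit genes among the largest rises as deposited were Mrpl2 (0.45 with AmTARS at 1 h), whose bacterial counterpart lies at the peptidyl transferase centre, Mrpl33 (0.50 with Pam3CSK4 at 1 h), Mrpl14 (0.47 with Pam3CSK4 at 1 h), Mrpl54 (0.55 with Pam3CSK4 at 3 h), Mrpl55 (0.46 and 0.43 with Pam3CSK4 at 1 h and 3 h) and Mrpl28 (0.40 with AmTARS at 1 h). Corrected, these values became 0.18 for Mrpl2, 0.19 for Mrpl33, 0.03 for Mrpl14, 0.23 for Mrpl54, 0.14 and 0.20 for Mrpl55 and 0.12 for Mrpl28. Mrpl14, Mrpl28 and the first of Mrpl55 then no longer passed. At the other end, Mrpl50 stood between -0.02 and 0.01 in the 4 comparisons and Mrpl19 between 0.01 and 0.06, and neither passed the test in any as deposited. Whether the genes of the family differ in their changes was not tested, and Mrpl19 passed in all 4 comparisons after correction.

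Small-subunit genes rose in number 16, 15, 18 and 14 of 26, and 1 fell, Mrps6 with Pam3CSK4 at 3 h. Those with a bacterial counterpart rose in 12, 11, 14 and 11 of 16 cases and those without one in 4, 4, 4 and 3 of 10. After correction the counts were 2, 2, 4 and 5 of 16 and 2, 2, 3 and 2 of 10, so that the larger share with a counterpart remained with Pam3CSK4 at 3 h alone; neither contrast was tested. Small-subunit genes as a whole then rose in 4, 4, 7 and 7 of 26 cases, and 1, 2, 0 and 2 fell. Of all genes, 18.9%, 18.8%, 23.9% and 24.7% were called higher as deposited and 8.13%, 11.3%, 11.7% and 21.1% after correction. Called lower were 19.8%, 17.9%, 24.8% and 24.2% of all genes as deposited and 6.99%, 8.55%, 11.5% and 21.4% after correction. Mrps12, whose protein helps form the decoding centre, stood at 0.43, 0.36, 0.41 and 0.28. Mrps24 stood at 0.42, 0.35, 0.49 and 0.24, Mrps16 at 0.38, 0.41, 0.42 and 0.34, and Mrps21 at 0.42, 0.27, 0.40 and 0.29; each passed in all 4 comparisons. After correction, Mrps16 still passed in all 4, Mrps24 and Mrps21 in none, and Mrps12 stood at 0.09, 0.07, -0.02 and -0.02, also without passing. Mrps24 shares exon sequence with Urgcp on the same strand (226 nt), and Mrps21 has a near-identical copy, Gm6181. The 3 relatives of bacterial S18 differed in their calls. Mrps18a stood at 0.33, 0.34, 0.40 and 0.31 and Mrps18c at 0.31, 0.30, 0.41 and 0.41, each called higher in all 4, while Mrps18b stood at 0.06, 0.17, 0.02 and 0.24 and was called higher with Pam3CSK4 at 3 h. After correction 1 of these calls was left, that of Mrps18c with Pam3CSK4 at 3 h (0.17). Whether they differ from each other was not tested. Exons of Gm16279 cover 638 nt of Mrps18b on the opposite strand. Mrps22 stood at -0.17, -0.20, 0.02 and -0.12, and Mrps36 at 0.21, 0.15, 0.17 and 0.09, without passing. Mrps30 stood at 0.16, 0.12, 0.13 and 0.00, also without passing; after correction it passed at 1 h with both ligands (0.24 and 0.23).

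The changes moved with transcript length across all genes, and mitochondrial ribosomal protein genes are short. The transcript of median length per gene, from GENCODE M21, had a median of 1226 nt over the 77 genes and of 2802 nt over all listed genes with a match, and 59 of the 77 lay below the latter. GC content was alike, with medians of 51.1% and 50.5%. Spearman's rho between length and log2 fold change, a description over genes that share the same libraries, was -0.71, -0.64, -0.71 and -0.49 over all genes tested, in the order of comparisons above. Among the 77 it was -0.42, -0.36, -0.43 and -0.28. The 26 genes under 1000 nt had median log2 fold changes of 0.28, 0.28, 0.39 and 0.28, and the 19 of 2500 nt or more 0.16, 0.21, 0.26 and 0.16. The medians of the long members were thus smaller than those of the short ones and also above 0.

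**Figure D2:**
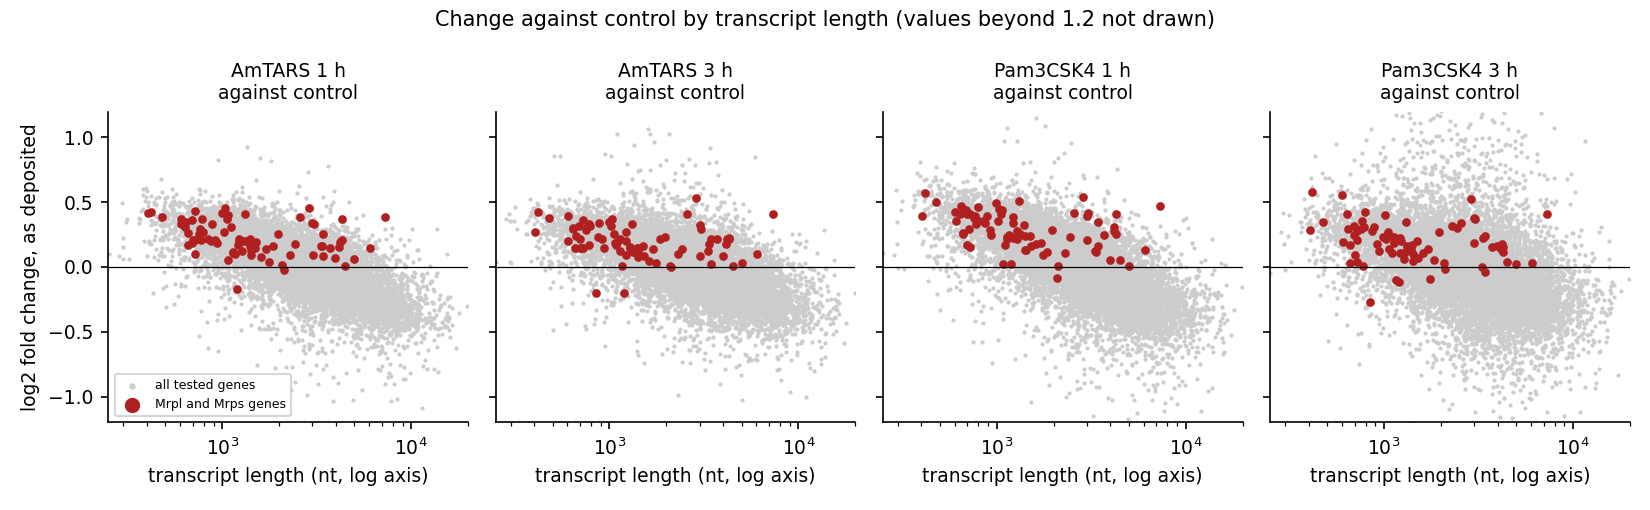
Log2 fold change against control, as deposited, by length of the transcript of median length (log axis), for all genes tested (grey) and the 77 mitochondrial ribosomal protein genes (red) in the 4 comparisons. Short genes tend to lie above 0 and long genes below it; Spearman's rho over all genes is -0.71, -0.64, -0.71 and -0.49, and the longest red point, Mrpl17 at 7300 nt, lies above 0 in each panel.

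After each library was corrected for length and GC content, fewer of the genes were called. With AmTARS at 1 h, 17 rose and 1 fell (8.13% of all genes called higher, 6.99% lower), and at 3 h 14 rose and 2 fell (11.3% and 8.55%). With Pam3CSK4 at 1 h, 24 rose and 1 fell (11.7% and 11.5%), and at 3 h 25 rose and 7 fell (21.1% and 21.4%). The corrected medians were 0.06, 0.07, 0.07 and 0.05, against -0.01 to 0.01 over all genes. Lower after correction in 3 comparisons was Mrps22, a gene of the small subunit, at -0.32 with AmTARS at 1 h, -0.34 at 3 h and -0.29 with Pam3CSK4 at 3 h; Mrps6 was lower in 2 comparisons and 6 other genes in 1 each. Mrpl19, close to 0 as deposited, stood at 0.26, 0.20, 0.24 and 0.18 and passed in all 4. The count depended on the length assigned to a gene. With the shortest coding transcript 27, 27, 40 and 29 rose (12.4%, 14.0%, 17.0% and 22.7% of all genes higher), and 0, 2, 0 and 2 fell (11.9%, 12.2%, 16.1% and 22.5% lower). With the coding length 12, 7, 23 and 15 rose (8.56%, 11.5%, 14.6% and 21.1%), and 0, 2, 0 and 6 fell (8.96%, 10.4%, 14.5% and 21.1% lower). With the coding length, the share of the 77 called higher was below that of all genes at 3 h for both ligands and above it at 1 h. Both of these lengths were tried after seeing the data.

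**Figure D3:**
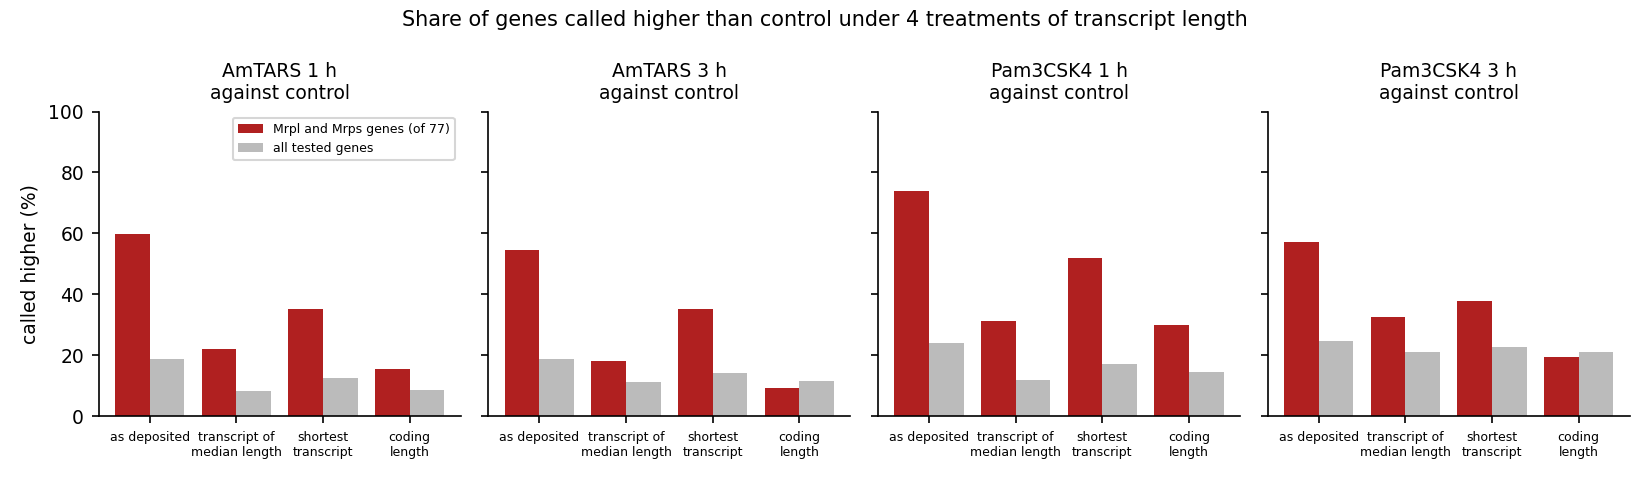
Share of genes called higher than control (limma, adjusted p below 0.05) among the 77 mitochondrial ribosomal protein genes (red) and all genes tested (grey), as deposited and with a correction by 3 measures of length. As deposited 46, 42, 57 and 44 of the 77 are called; with the coding length 12, 7, 23 and 15.

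Which genes stayed called moved with the annotated length as well. As deposited, 7 of the 19 genes of 2500 nt or more and 25 of the 58 shorter ones were called higher in all 4 comparisons. After correction by the transcript of median length, 13 of the 19 and 1 of the 58 were, the 1 being Mrpl12 at 1316 nt. By the shortest transcript the numbers were 12 and 6, and by the coding length 4 and 0. How many of all genes of such lengths were called higher in all 4 comparisons was not counted. Whether these numbers are particular to the family can thus not be told. The 14 genes in all 4 comparisons after correction by the transcript of median length were Mrpl3, Mrpl11, Mrpl12, Mrpl15, Mrpl17, Mrpl19, Mrpl35, Mrpl48, Mrpl51, Mrpl57, Mrps14, Mrps16, Mrps25 and Mrps26. Of these, Mrps25 shares 4590 nt of exon sequence on the opposite strand with Nr2c2, Mrpl19 1962 nt with Gcfc2 and Mrpl48 708 nt with Rab6a. Mrpl3, Mrpl12, Mrpl51 and Mrps26 overlap exons of other genes by less. Which transcript of each gene was sequenced was not tested.

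The 4 genes called higher in each comparison with control under all 4 treatments of length were Mrpl17, Mrpl57, Mrpl11 and Mrps14. They were picked out after their values were seen, by their calls under these treatments. Passing in further settings on the same libraries is thus no separate support. No annotated exon of another gene overlaps theirs, and no near-identical copy was found among annotated transcripts. Each of them passed in all 25 settings tried for the comparisons with AmTARS and with Pam3CSK4 at 1 h, and in all 24 for Pam3CSK4 at 3 h.

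Mrpl17 (chromosome 7, 105803206 to 105811099, minus strand, mm10) encodes a protein of the tunnel exit. It had 25.5 and 24.9 CPM in control, 33.7 and 33.0 CPM with AmTARS at 1 h and 35.0 and 32.6 CPM at 3 h. With Pam3CSK4 it had 36.3 and 34.4 CPM at 1 h and 32.9 and 34.9 CPM at 3 h. Treated and control libraries did not overlap, and the treated groups overlapped each other except Pam3CSK4 and AmTARS at 1 h. The rises were 0.39, 0.41, 0.47 and 0.41 on the log2 scale (SE 0.06 each), with adjusted p in limma from 6.33e-06 to 9.68e-05, or 1.31- to 1.39-fold. After correction they were 0.67, 0.65, 0.80 and 0.63, with a transcript of median length of 7300 nt; its shortest is 1028 nt.

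Mrpl57 (chromosome 14, 57826234 to 57829296, plus strand) encodes a small protein of the large subunit that bacteria lack. Its level was 14.2 and 14.2 CPM in control, 19.6 and 20 CPM with AmTARS at 1 h, and 22.2 and 19.7 CPM at 3 h. With Pam3CSK4 it was 21.0 and 21.1 CPM at 1 h and 20.5 and 21.3 CPM at 3 h. Each treated library thus stood well above control, at 1.37-, 1.44-, 1.45- and 1.44-fold in the fit. The log2 fold changes of 0.46, 0.53, 0.54 and 0.53 (SE 0.07 each) had adjusted p in limma from 4.48e-06 to 7.21e-05. With AmTARS this was the largest rise among the 77 genes at both times.

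Mrpl11 (chromosome 19, 4962147 to 4966999, plus strand) encodes the protein at the base of the stalk. It had 21.2 and 21.1 CPM in control and 27.7 and 26.2 CPM with AmTARS at 1 h, followed by 26.2 and 26.1 CPM at 3 h. The Pam3CSK4 libraries had 30.6 and 26.8 CPM at 1 h and 27.5 and 27.8 CPM at 3 h. No treated library reached down to control. The log2 fold changes were 0.33, 0.29, 0.42 and 0.37 (SE 0.07 each), with adjusted p in limma from 5.22e-05 to 0.00249. The transcript of median length of Mrpl11 has 3045 nt and its shortest 813 nt.

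Mrps14 (chromosome 1, 160195215 to 160202170, plus strand) encodes a protein of the head of the small subunit. Control libraries had 26.1 and 25.8 CPM, AmTARS libraries 34.6 and 31.8 CPM at 1 h and 34.1 and 31.4 CPM at 3 h. Pam3CSK4 libraries had 36.4 and 32.6 CPM at 1 h and 32.6 and 35.4 CPM at 3 h. All treated libraries lay above control and the treated groups overlapped. The log2 fold changes were 0.34, 0.32, 0.40 and 0.38 (SE 0.07 each), with adjusted p in limma from 0.000117 to 0.00145. The transcript of median length of Mrps14 has 2999 nt and its shortest 787 nt.

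Mrpl52 shows the other case. Its transcript is 418 nt long. Its rises of 0.42, 0.43, 0.57 and 0.58 became 0.07, 0.12, 0.13 and 0.27 after correction, and only the last passed (adjusted p = 0.000383 in limma). Mrpl12 kept its calls in all 4 comparisons after correction, at 0.20, 0.15, 0.24 and 0.16, and lost the one for AmTARS at 3 h with the coding length (0.13, adjusted p = 0.0705 in limma).

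**Figure D4:**
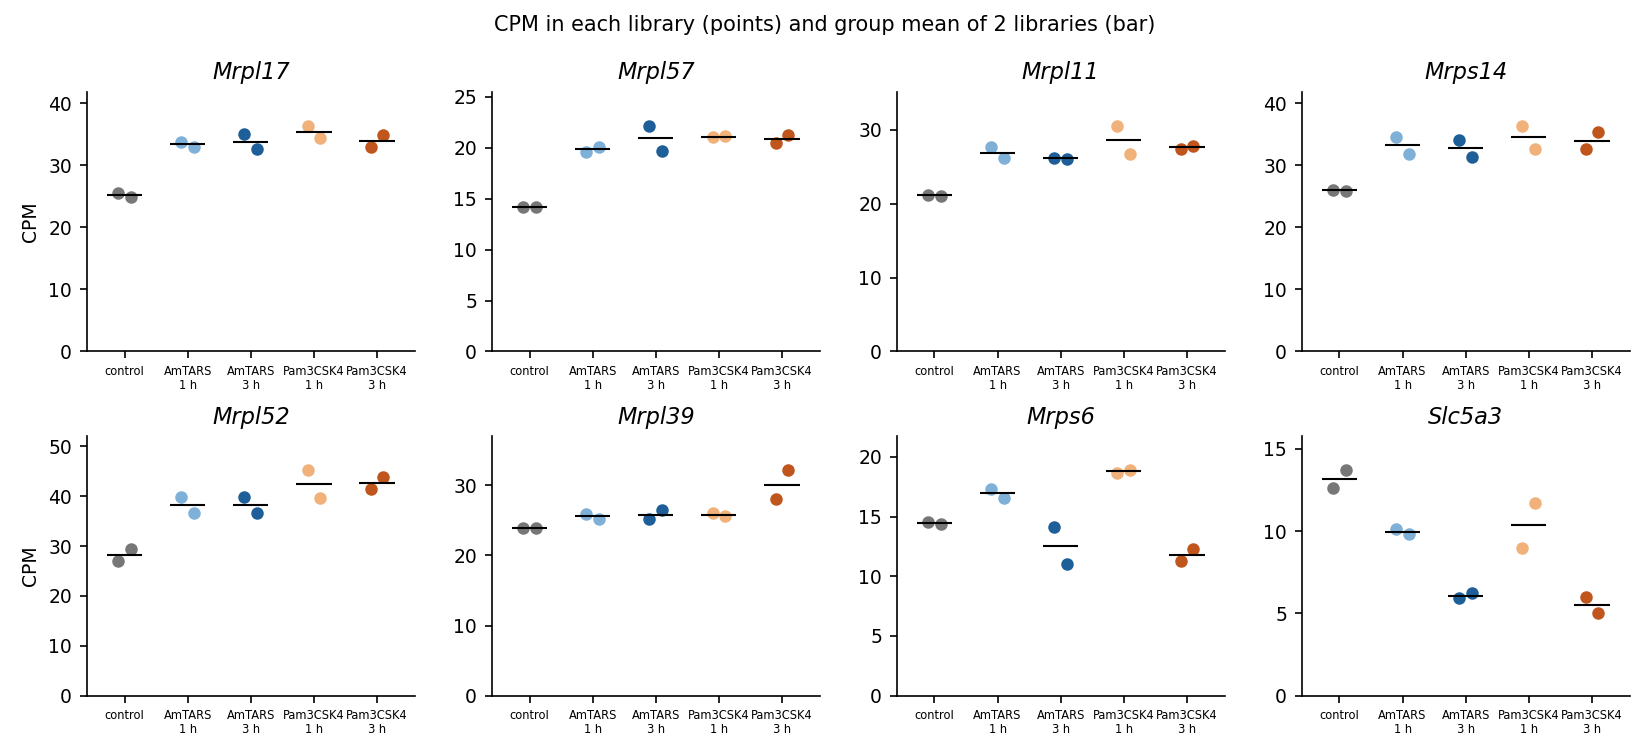
CPM of 7 mitochondrial ribosomal protein genes and of Slc5a3, which shares exon sequence with Mrps6, in each library (points) with the mean of the 2 libraries of a group (bar); the axes start at 0. Mrpl17, Mrpl57, Mrpl11, Mrps14 and Mrpl52 are higher in all treated libraries than in control, while Mrps6 is higher at 1 h and lower at 3 h.

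Mrps6 was the gene that fell with time under both ligands. Its protein sits in the platform of the small subunit. Its level was 14.6 and 14.4 CPM in control, 17.3 and 16.6 CPM with AmTARS at 1 h and 14.1 and 11 CPM at 3 h. With Pam3CSK4 it was 18.7 and 18.9 CPM at 1 h and 11.3 and 12.3 CPM at 3 h. The libraries at 1 h lay above control and those at 3 h below it, without overlap. From 1 h to 3 h it fell by 0.63 (SE 0.09) on the log2 scale with Pam3CSK4 (adjusted p = 1.52e-05 in limma) and by 0.41 (SE 0.09) with AmTARS (adjusted p = 0.0132). The difference of these falls was 0.22 (95% interval -0.05 to 0.48, adjusted p = 0.359). The fall with Pam3CSK4 passed in all 24 settings and that with AmTARS in 21 of 25. Without AmTARS 3 h replicate 3 it was -0.25 and did not pass (adjusted p = 0.421), and it did not pass without either AmTARS 1 h library or without an intensity trend in the fit. Against control, Mrps6 rose by 0.35 with Pam3CSK4 at 1 h and fell by 0.27 at 3 h; the rise was 0.04 after the length and GC correction and the fall -0.50.

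Mrps6 (chromosome 16, 92058270 to 92112227, plus strand) shares up to 305 nt of exon sequence on the same strand with annotated transcripts of Slc5a3 and Gm49711. Slc5a3, a gene of an inositol transporter, starts 52 nt after Mrps6. Reads from the shared sequence cannot be told apart by strand, and how they were counted is not given in the sources used here. Slc5a3 had 12.6 and 13.7 CPM in control, 5.91 and 6.21 CPM with AmTARS at 3 h and 6.02 and 5.05 CPM with Pam3CSK4 at 3 h. It fell by 1.00 and 1.12 on the log2 scale at 3 h. After correction it was -0.69 and -0.86 at 3 h, both called. At 1 h it fell by 0.37 and 0.33 as deposited, but stood at -0.02 and 0.07 after correction without passing (adjusted p = 0.922 and 0.629 in limma); its transcript of median length has 10913 nt. The part of the shared exon in the course of Mrps6 was not tested.

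Between the ligands at 1 h, no mitochondrial ribosomal protein gene passed in limma (0.00877% of all genes higher, 0.175% lower with AmTARS). At an unadjusted p below 0.05 there were 5, all lower with AmTARS, the lowest adjusted p was 0.446, and voom, also in limma, called 0. The median of the 77 was -0.07, and 60 of them were negative. Over all genes tested the median was -0.002, and 5794 of 11407 were negative. Spearman's rho between length and this difference was 0.33 over all genes and 0.22 among the 77. Negative too were 74 of 77 cytosolic ribosomal protein genes and 67 of 77 oxidative phosphorylation genes tested. The part of length was not tested. Without Pam3CSK4 1 h replicate 1 the median of the 77 mitochondrial ribosomal protein genes was -0.04. The 95% intervals of the single genes ran from -0.39 (Mrpl53) to 0.29 (Mrps33) at the outside, with a median width of 0.14 on either side. For Mrpl17 the difference was -0.08 (95% interval -0.21 to 0.05), for Mrpl57 -0.08 (-0.23 to 0.06), for Mrpl11 -0.09 (-0.23 to 0.06) and for Mrps14 -0.05 (-0.20 to 0.09).

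At 3 h, 1 gene was lower with AmTARS than with Pam3CSK4 and none was higher (9.08% and 8.04% of all genes), and the median was 0.01, with -0.04 to 0.05 over fits without 1 library. The gene was Mrpl39, whose protein sits near the tunnel exit and is related in sequence to threonyl-tRNA synthetases. It had 23.9 and 24 CPM in control, 26.0 and 25.2 CPM with AmTARS at 1 h and 25.1 and 26.4 CPM at 3 h. With Pam3CSK4 it had 26.0 and 25.6 CPM at 1 h and 28 and 32.2 CPM at 3 h. The libraries of Pam3CSK4 at 3 h were the highest, and they differ from each other. The difference of -0.21 (SE 0.07, adjusted p = 0.0367 in limma) was -0.11 without Pam3CSK4 3 h replicate 3 (adjusted p = 0.422). Without AmTARS 3 h replicate 3, no gene was lower and 1 was higher. After the length and GC correction 2 genes were higher and 2 lower (11.1% and 10.7% of all genes). With the coding length 1 was higher and 2 lower (11.2% and 10.6%), and with the shortest transcript 0 and 2 (10.4% and 10.1%).

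From 1 h to 3 h of AmTARS, Mrps6 was the 1 gene that passed (0.57% of all genes lower, 1.81% higher), and the median was -0.01, with -0.05 to 0.02 over fits without 1 library. From 1 h to 3 h of Pam3CSK4, 13 fell and 1 rose (15.3% and 16.2% of all genes), and the median was -0.09. It was -0.04 without Pam3CSK4 1 h replicate 1 and -0.05 without Pam3CSK4 3 h replicate 2. After Mrps6 the largest falls were those of Mrpl16 (-0.35), near the peptidyl transferase centre, Mrpl41 (-0.32), Mrpl28 (-0.30), Mrps24 (-0.26), Mrps26 (-0.25), Mrpl2 (-0.23) and Mrpl42 (-0.23). After the length and GC correction Mrps24 and Mrpl2 no longer passed. Mrpl16 had 17.5 and 20.1 CPM in control, 22.1 and 22.6 CPM with Pam3CSK4 at 1 h and 16.4 and 18.5 CPM at 3 h. Its libraries at 3 h thus overlapped control and lay below those at 1 h. The gene that rose was Mrpl39, by 0.21 (adjusted p = 0.0237, and adjusted p = 0.296 without Pam3CSK4 3 h replicate 3). Without Pam3CSK4 1 h replicate 1, the library with the fewest reads, 5 genes fell and none rose. After the length and GC correction 14 fell and 4 rose (16.9% and 16.3%), with the coding length 12 and 3 (17.3% and 16.4%), and with the shortest transcript 11 and 3 (16.6% and 15.8%). The shares of the 77 genes called were thus near those of all genes for falls, and lower for rises. For the difference between the ligands in the change from 1 h to 3 h, no gene passed in limma (3.49% of all genes higher, 5.71% lower), 4 did at an unadjusted p below 0.05, and voom called 0.

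Other genes of the mitochondrial ribosome carry other names. Of 6 listed, 5 rose in each comparison with control and 1 did not pass. The shares of all genes called higher were 18.9%, 18.8%, 23.9% and 24.7% as deposited and 8.13%, 11.3%, 11.7% and 21.1% after correction. Dap3, the gene of a GTP-binding protein of the small subunit, stood at 0.16, 0.20, 0.29 and 0.17. Gadd45gip1 stood at 0.32, 0.30, 0.55 and 0.37, Ict1, the release-factor relative also called Mrpl58, at 0.26, 0.26, 0.33 and 0.22, Aurkaip1 at 0.33, 0.31, 0.47 and 0.33, and Chchd1 at 0.33, 0.25, 0.40 and 0.33. Ptcd3 stood at -0.01, -0.01, -0.14 and 0.01. After the length and GC correction Dap3, Gadd45gip1 and Ict1 were called higher in all 4, with Dap3 at 0.33, 0.33, 0.49 and 0.33.

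Lists of the factors that work with this ribosome are read against all genes, of which 18.9%, 18.8%, 23.9% and 24.7% were called higher and, with Pam3CSK4 at 3 h, 24.2% lower. The assembly factors (20.8%, 20.8%, 29.2% and 12.5% higher) lay near these shares in the first 3 comparisons and below in the last. As deposited, smaller shares of the translation factors and tRNA synthetases than of all genes were called higher in each comparison. After correction this did not hold for the translation factors at 1 h, where 2 of 14 rose with either ligand. Of all genes, 8.13%, 11.3%, 11.7% and 21.1% were then called higher and 6.99%, 8.55%, 11.5% and 21.4% lower. These differences were not tested. Of 14 translation factors 1 rose in each comparison, Tsfm, the nucleotide exchange factor of the mitochondrial elongation factor Tu, at 0.51, 0.36, 0.67 and 0.44; after correction it did not pass with AmTARS at 3 h. With Pam3CSK4 at 3 h 3 fell, with Taco1, a translational activator of a complex IV subunit, at -0.30. After correction 2, 1, 2 and 2 of the 14 rose and 0, 0, 1 and 4 fell. Of 24 ribosome assembly factors 5, 5, 7 and 3 rose, with Mpv17l2 at 0.37, 0.33, 0.49 and 0.32, and with Pam3CSK4 at 3 h 2 fell, Nsun4, an rRNA methyltransferase, at -0.32 and Rbfa at -0.18. After correction 2, 2, 3 and 3 of the 24 rose and 0, 0, 0 and 6 fell, and Mpv17l2 passed in none. Of 17 mitochondrial aminoacyl-tRNA synthetases 1, 0, 3 and 1 rose and 1, 1, 2 and 5 fell. Among these were Lars2 at 0.59, 0.33, 0.57 and 0.60, where 0.33 did not pass, and Wars2 at -0.39, -0.37, -0.20 and -0.21, where the first 2 passed. After correction 1 of the 17 rose in each comparison, Lars2, and 0, 0, 0 and 2 fell, without Wars2. Of 12 genes of mitochondrial transcription and RNA processing 2, 2, 4 and 2 rose, with Slirp, an RNA-binding partner of Lrpprc, at 0.38, 0.43, 0.49 and 0.42, and Lrpprc fell by 0.25 with Pam3CSK4 at 3 h. After correction 2 of the 12 rose in each comparison and none fell. The median log2 fold changes of the translation factors were 0.03, 0.02, 0.06 and -0.05, against 0.20, 0.20, 0.28 and 0.18 of the 77 ribosomal protein genes. Whether the lists differ was not tested.

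As deposited, more genes were called higher among the cytosolic ribosomal proteins and the subunits of oxidative phosphorylation. Of all genes, 18.9%, 18.8%, 23.9% and 24.7% were called higher as deposited and 8.13%, 11.3%, 11.7% and 21.1% after correction. Of 77 cytosolic ribosomal protein genes 75, 74, 74 and 72 rose, with medians of 0.38, 0.31, 0.46 and 0.30, and 44, 32, 49 and 34 rose once length and GC were corrected for. Of 77 oxidative phosphorylation genes tested 68, 65, 68 and 67 rose as deposited, and 1 fell with Pam3CSK4 at 3 h. After correction 20, 16, 36 and 21 of them rose. The mitochondrial ribosomal protein genes thus had the smallest number called of the 3 families as deposited, in each of the 4 comparisons, without a test of that difference. After correction 17, 14, 24 and 25 of the mitochondrial ribosomal protein genes rose. With Pam3CSK4 at 3 h alone, that was more than among the oxidative phosphorylation genes.

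**Figure D5:**
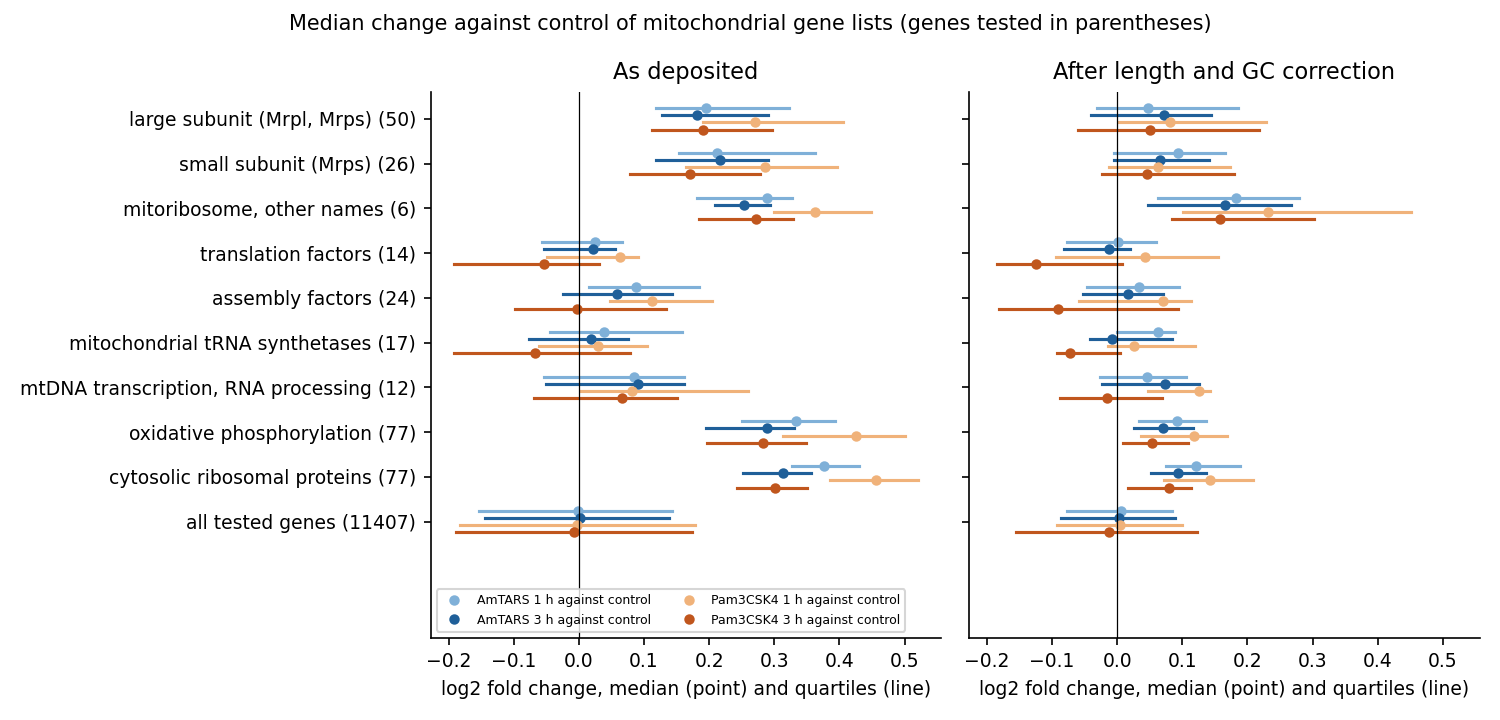
Median log2 fold change against control (point) with the quartiles over genes (line) for the subunits of the mitochondrial ribosome, related gene lists and all genes tested, as deposited (left) and after the length and GC correction (right). The large-subunit genes have medians of 0.20, 0.18, 0.27 and 0.19 as deposited and 0.05, 0.07, 0.08 and 0.05 after correction.

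Each library held 27398791 to 37559810 reads in these rows. Summed CPM was 959639 and 960837 in the control libraries, below the 998260 to 1037796 of the treated ones. Of 8 macrophage marker symbols 7 were listed, with a summed level of 48600 to 52900 CPM. The other, Emr1, is an older symbol of the listed Adgre1. Called lower than control were 3, 2, 4 and 3 of the 7, and higher 0, 0, 0 and 2, with log2 fold changes down to -1.02 with Pam3CSK4 at 3 h. Of all genes, 19.8%, 17.9%, 24.8% and 24.2% were called lower and 18.9%, 18.8%, 23.9% and 24.7% higher. Of 6 dendritic-cell markers 2 were listed, at 67.8 and 69.1 CPM in control and 59.4 to 68.3 CPM in treated libraries. T-cell and erythroid markers were not listed, and of the B-cell markers Cd79b alone was, at 1.55 to 2.07 CPM. Of 4 fibroblast markers 4 were listed, at 1460 to 1560 CPM in control and 1250 to 1490 CPM in treated libraries, and 4, 2, 1 and 3 of them were called lower. Of 8 neutrophil and granule markers 7 were listed, with a summed level of 1620 and 1710 CPM in control and 2130 to 2740 CPM in treated libraries. Called higher were 6, 5, 6 and 6 of the 7, a direction shared with the mitochondrial ribosomal protein genes. Lower was 1 of the 7 markers with Pam3CSK4 at 1 h (-0.33). The calls of all these marker lists are as deposited. They were not counted after the length and GC correction, so the part of transcript length in them was not tested. Ly6g, a defining neutrophil marker, was not listed, and the part of such cells was not tested. In bulk samples, fewer cells of a type and less RNA per cell cannot be told apart. Of the 77 genes, 32 overlap exons of another annotated gene, 27 of them on the opposite strand, and 10 have a near-identical stretch in another annotated gene; how such reads were counted is not given in the sources used here, so their values are less certain.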

How the data were processed

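Per the submitters' processing notes, stranded poly-A libraries were processed with STAR 2.5.1, mm10 and R 3.3.0. How reads were counted and scaled, and on which gene models, is not given in the sources used here. What the authors deposited are log2(CPM + 1) values. With 1 factor per library, 100% of them came out as whole reads to within 0.1 read. The 11407 genes that averaged 1 CPM or more were fitted with limma 3.58.1 (R 4.3.3), 1 mean per group over all 10 libraries, an intensity trend, and Benjamini-Hochberg adjustment within each of 9 contrasts; the threshold was 0.05. Residual degrees of freedom were 5 and prior ones 14.7. Fold changes are on the log2(CPM + 1) scale, which understates those of low genes. To correct for length and GC content, the deviations of a library were fitted with natural splines (5 degrees of freedom each) of log2 length and GC content from GENCODE M21 (11573 of 11617 symbols matched), and the trend was removed; the length was that of the transcript of median length or, as alternatives added after seeing the data, of the shortest coding transcript or of the coding sequence. Near-identical copies (at least 95% identity over at least 50% of the length) were sought with blastn 2.17.0. The fits were tested on simulated data. Alternatives were other filters, pseudocounts, scalings, voom on the recovered reads, a block for the replicate number, and fits without 1 library at a time. Named were the 8 largest rises and falls among called genes per contrast, the 3 highest and 3 lowest levels, a short list of genes by name, and up to 2 genes per other list and contrast; exceptions are stated. The members and lists were chosen with earlier results of these data known.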

Additional observations from a re-analysis of the deposited data

How the results depend on the processing

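Other filters, pseudocounts, scalings and voom on the recovered reads kept the counts of genes called higher than control within 1.5 times of those reported. Length treatments moved them: in the order AmTARS 1 h, AmTARS 3 h, Pam3CSK4 1 h and Pam3CSK4 3 h, the correction gave 17, 14, 24 and 25 higher and 1, 2, 1 and 7 lower, the coding length 12, 7, 23 and 15 higher and 0, 2, 0 and 6 lower, and the shortest transcript 27, 27, 40 and 29 higher and 0, 2, 0 and 2 lower. Without the intensity trend, 1 gene was lower with AmTARS at 3 h than in control, and 0 passed as lower for AmTARS against Pam3CSK4 at 3 h and for AmTARS 3 h against 1 h. For AmTARS against Pam3CSK4 at 3 h, 2 were lower with a mean of at least 5 CPM or with voom, 0 with quantile scaling, 2 lower and 2 higher after the length and GC correction, 2 and 1 with the coding length, and 2 and 0 with the shortest transcript. From 1 h to 3 h of Pam3CSK4, 4 rose after the correction and 3 with the coding length or the shortest transcript.

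The replicate numbers share no stated origin, and deviations of the libraries numbered 3 in different groups correlated at -0.206 to 0.204, so no pairing was assumed. With the replicate block, 18 genes rose with AmTARS at 3 h, 3 were lower for AmTARS against Pam3CSK4 at 3 h, 2 fell from 1 h to 3 h of AmTARS, and 3 fell and 0 rose from 1 h to 3 h of Pam3CSK4. With the replicate block and the length and GC correction, 18 rose and 1 fell with AmTARS at 1 h, 9 and 1 at 3 h, 17 and 0 with Pam3CSK4 at 1 h, 26 and 7 at 3 h, and 2 rose and 6 fell from 1 h to 3 h of Pam3CSK4. The shares of all genes called in the fits with the block and in those without 1 library were not counted. The counts of these fits can thus not be read against all genes.

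Leaving out 1 library gave 28 to 46 higher and 0 lower for AmTARS at 1 h, 15 to 43 and 0 to 1 at 3 h, 46 to 58 and 0 for Pam3CSK4 at 1 h, and 28 to 43 and 0 to 1 at 3 h. It gave 0 to 1 higher and 0 to 2 lower for AmTARS against Pam3CSK4 at 3 h, 0 to 1 lower for AmTARS 3 h against 1 h, 0 to 2 higher and 5 to 13 lower for Pam3CSK4 3 h against 1 h, and 0 to 1 in either direction for the difference of these changes. Of the genes called higher than control, 11 of 46, 6 of 42, 15 of 57 and 10 of 44 stood at -0.01 or below under at least 1 alternative, and 8, 5, 11 and 13 passed under every one. Among them were Mrps12 with Pam3CSK4 at 1 h (-0.02 after the correction, -0.014 with the coding length) and at 3 h (-0.023, -0.03, and -0.023 with the block and the correction). Mrps18a at 1 h was -0.001 with the block and the correction, and is not in these counts; the cause was not tested. With 2 libraries per group, single genes had 95% intervals of about 0.14 on either side, which limits what can be told from 0.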
